A study of Mus musculus with 53 samples.

Results

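The livers compared were 7 from male C57BL/6J mice labelled Bmp8b knockout that ate a Western diet (Teklad TD88137) and 9 from male wild-type C57BL/6J mice that ate a low-fat control diet (TD08485). Both diets began at 9 weeks of age and ran for 32 weeks. Group membership came from the diet label and from the KO or WT ending of each title, which picked 16 of the 53 livers of the series. No knockout-labelled liver on the low-fat diet was analysed here, so genotype and diet cannot be told apart, and the contrast reads as the diet response of the knockout-labelled livers. A further 7 wild-type livers on the same Western diet for the same time gave the comparison at equal diet. How the Bmp8b allele was made is not given in the sources used here, and the titles give each diet liver a number of its own, so p-values measure the spread between these livers.

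A long Western diet, rich in fat, sucrose and cholesterol, loads hepatocytes with lipid droplets and can lead to steatohepatitis, in which injured hepatocytes, recruited macrophages and activated stellate cells take part. Stellate cells store retinoids when quiescent and lay down collagen when activated, while cholesterol surplus shuts off the SREBP2 programme of sterol synthesis in hepatocytes. BMP8B is a secreted ligand of the TGF-beta superfamily that signals through SMAD proteins. Other BMP ligands switch on hepcidin in hepatocytes through SMAD proteins.

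Whole-liver RNA was sequenced from mRNA libraries, and each of the 23 diet libraries held between 8963187 and 15196537 reads counted on genes. On the first principal component of these libraries, which held 47.3% of the variance, the 9 low-fat livers lay between -51.1 and -21.5. Knockout-labelled liver 1 stood apart from its group at -32.4, inside the low-fat range. Livers 15 and 33 lay at 1.27 and 0.35, and the other 4 lay between 24.4 and 46.0. Counts over all genes are therefore given with and without liver 1, and the gene lists whose counts moved without it are named with the description of that liver. The i5 part of the dual index also splits the libraries, with 5 knockout-labelled and 4 low-fat livers on index D501 and 2 and 5 on index D502.

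The targeted gene came first. Bmp8b (chr4:123105165-123132099, + strand, GRCm38) had 0 to 3 reads in the low-fat livers with a median of 2, and 6 to 33 reads in the knockout-labelled livers with a median of 18. In CPM (reads scaled to library size, after TMM normalisation), the low-fat livers ran from 0 through a median of 0.157 to 0.312 and the knockout-labelled livers from 0.718 through 1.69 to 2.23. Every knockout-labelled liver was above every low-fat liver. The mean of log2(CPM + 0.5) was 1.67 higher in the knockout-labelled livers (2-sided exact permutation test, p = 8.74e-05, the smallest that 11440 splits can give). Wild-type Western diet livers held 7 to 30 reads, and the difference between both Western diet groups was a log2 fold change of 0.50 ± 0.36 (SE, edgeR quasi-likelihood test, Benjamini-Hochberg adjusted p = 0.82). A gene total counts reads from any part of the gene, so it does not check the knockout label. Its neighbouring paralogue Bmp8a had 0 reads in all 23 libraries, and a count of 0 allows up to 3 reads a library.

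A pseudogene, known from the comparison at equal diet, separated the knockout-labelled livers from both wild-type groups. The gene it resembles, Ndufs5, overlapped between the groups. Ndufs5 encodes an accessory subunit of mitochondrial complex I and lies at chr4:123712710-123718202 (- strand), 0.581 Mb from Bmp8b. BC002163 is a processed pseudogene on another chromosome (chr16:42955631-42955949, + strand), with 317 of its 319 bases identical to the Ndufs5 transcript. The 100 bases that hold both of the differing positions, which are shown in capitals, are printed from GENCODE vM21 transcripts.
Ndufs5: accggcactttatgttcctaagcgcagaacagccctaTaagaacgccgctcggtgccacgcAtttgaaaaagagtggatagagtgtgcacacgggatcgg
BC002163: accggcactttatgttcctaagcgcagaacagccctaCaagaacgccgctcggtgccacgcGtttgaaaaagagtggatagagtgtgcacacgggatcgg

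Low-fat livers had 0 to 6 reads on BC002163 (median 2) and 128 to 229 reads on Ndufs5 (median 203). Knockout-labelled livers had 71 to 133 reads on BC002163 (median 92) and 65 to 194 on Ndufs5 (median 86). All 7 were above every low-fat and every wild-type Western diet liver for BC002163, whose log2 fold change was 5.03 ± 0.31 against low fat (edgeR quasi-likelihood test, adjusted p = 1.6e-10). Ndufs5 fell by 0.90 ± 0.16 on the log2 scale in the same test (adjusted p = 0.00034). With the reads of both counted as 1 gene, an alternative added after the data were seen, the log2 fold change was 0.02 ± 0.12 (edgeR, adjusted p = 0.91). BC002163 took 46.3% of the pair's reads in liver 1 (exact 95% binomial interval 38.3 to 54.3%), which is within the 32.2 to 63.3% of the other 6 knockout-labelled livers. The low-fat livers ranged from 0 to 3.51%. These intervals cover counting error only.

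The same share was read in the 2 other experiments of the series. In livers of mice given CCl4, a hepatotoxin, it was 50.5 ± 7.15% (SD, n = 6) with the knockout label and 2.54 ± 2.07% (n = 4) without it. On day 3 after partial hepatectomy, in which part of the liver is removed, it was 97.5 ± 3.38% (n = 4) with the label and 8.49 ± 10.4% (n = 5) without it. The pseudogene's difference in the CCl4 livers was already known when the share was defined, so these values are a description, with no test. Over all 53 livers, the 17 knockout-labelled ones ranged from 32.2 to 100% and the 36 wild-type ones from 0 to 28.6%, with no overlap. The wild-type hepatectomy livers of day 0 and day 3 carry the same mouse numbers, so the 36 may come from fewer animals. The highest wild-type share, in a day 0 hepatectomy liver, rests on 14 reads of the pair.

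**Figure D1:**
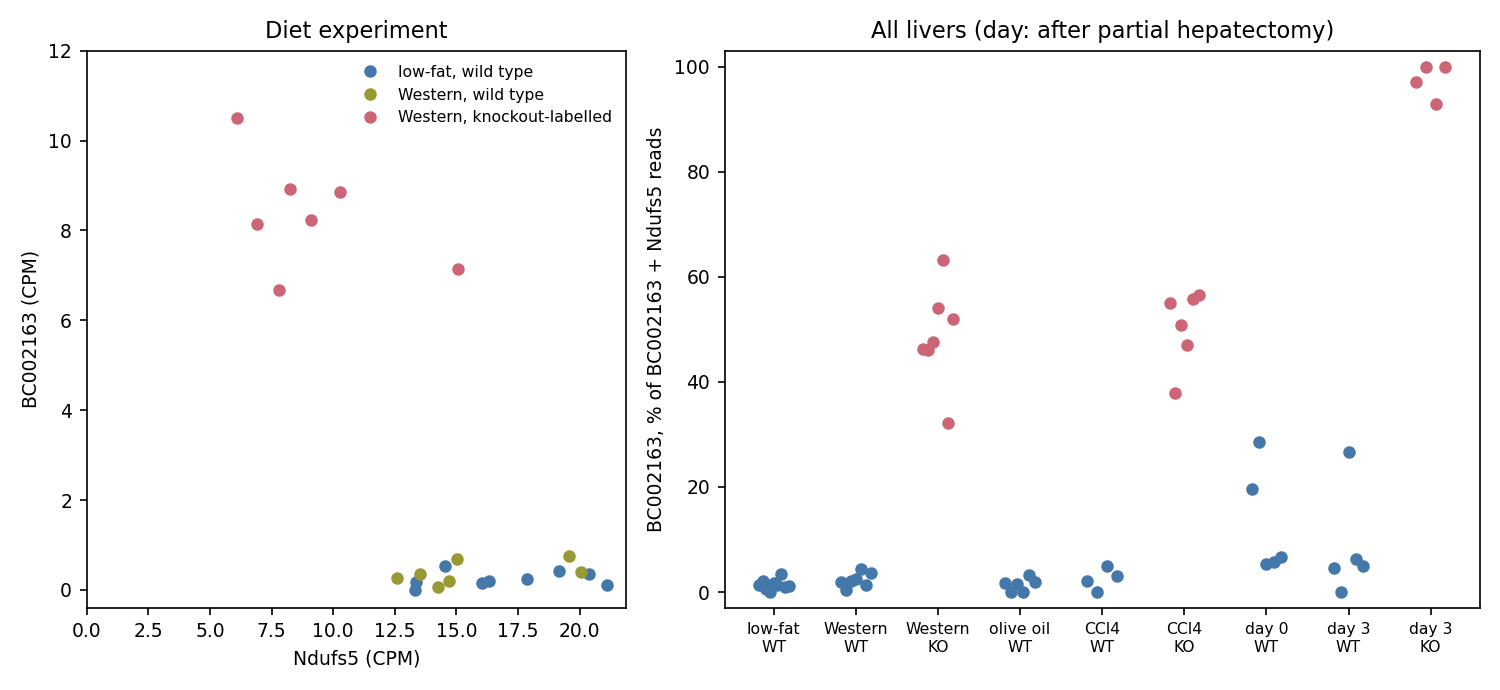
Left, BC002163 against Ndufs5 in CPM, with 1 point for each of the 23 diet livers; right, the share of BC002163 in the reads of both genes, in percent, with 1 point for each of the 53 livers, red where the label is knockout (KO) and blue where it is wild type (WT). The knockout-labelled diet livers sit between 32.2 and 63.3%, and no wild-type liver of any experiment exceeds 28.6%.

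Of 13005 genes tested, 3282 (25.2%) differed between the knockout-labelled Western diet livers and the low-fat livers at an adjusted p below 0.05 (edgeR quasi-likelihood test, Benjamini-Hochberg adjustment). Of these, 1960 were higher (15.1% of genes tested) and 1322 lower (10.2%). Large changes were mostly rises, with 797 genes more than 2-fold higher and 84 more than 2-fold lower. The median log2 fold change over all genes tested was -0.01. Within index D501 the counts were 932 higher and 649 lower, and within D502 448 higher and 190 lower. Without liver 1, 2118 genes were higher and 1693 lower, of which 3168 were among the 3282. Of the genes named, Acvrl1, Bmper, Lrat, Tagln and Ppargc1a passed the test in neither index set alone, and H2-Aa, Hamp and Tgfb1 did not pass it within D501. Within D502, which holds only 2 knockout-labelled livers, Abcg5, Alb, Atf3, Bmp5, Cx3cr1, Cxcl12, Cyp7b1, Hamp2, Hgf, Mt2, Ndufs5, Pparg, Scd1, Slc10a1, Sqle, St3gal3, Sult1e1 and Utp11 also did not pass.

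The largest rise of a well-expressed gene was that of Gpnmb, a glycoprotein of lipid-laden macrophages, followed by the pseudogene BC002163. Ly6d, a lipid-anchored surface antigen, ran from 0.836 through 1.56 to 6.47 CPM in low-fat livers and from 5.15 through 62.6 to 128 CPM in knockout-labelled livers, or 4.61 ± 0.60 as log2 fold change (edgeR, adjusted p = 2e-05). Ubd, a ubiquitin-like modifier induced by inflammatory cytokines, rose by 4.05 ± 0.66 on the log2 scale, and Sult1e1, which sulphates oestrogens, by 3.64 ± 0.66 (edgeR, adjusted p = 0.00019 and 0.00043). Liver 4 held the highest Sult1e1 level, 20.6 CPM, and without it the rise was 2.83. The steepest fall was that of Adgrf1, an adhesion G protein-coupled receptor. Its level went from 1.87 through 5.94 to 15.4 CPM in low-fat livers down to 0.0612 through 0.188 to 0.958 CPM, or -4.70 ± 0.56 as log2 fold change (edgeR, adjusted p = 5.3e-06) with no overlap between the groups. Srgap3, a regulator of Rac signalling, fell by 2.39 ± 0.36 and Slco2a1, a prostaglandin transporter, by 1.70 ± 0.21 on the same scale (edgeR, adjusted p = 0.00011 and 7.1e-06).

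In 128 genes (0.984% of those tested) all 7 knockout-labelled livers lay above all 9 low-fat livers, and in 78 (0.6%) all lay below. The count takes in liver 1 by its construction.

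**Figure D2:**
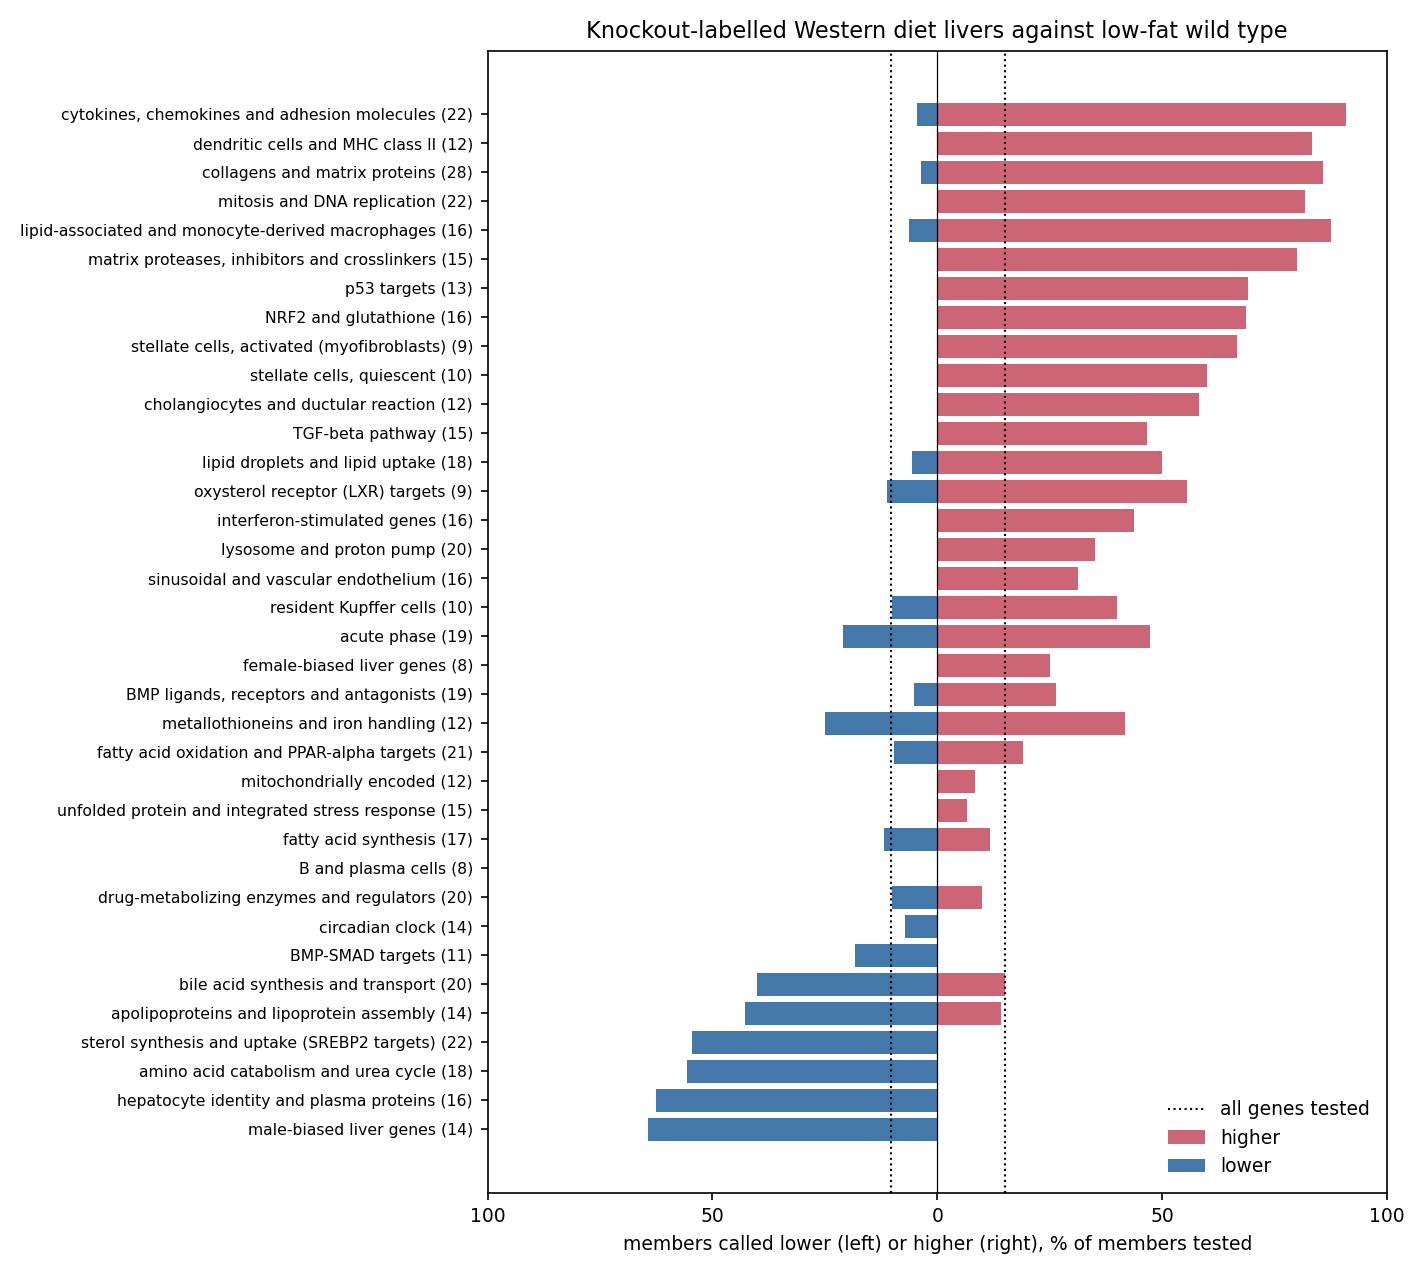
Percent of the tested members of each gene list that were called higher (right, red) or lower (left, blue) in the 7 knockout-labelled livers than in the 9 low-fat livers, with the number of members tested in parentheses; lists with at least 8 tested members are drawn. Dotted lines mark the 15.1% and 10.2% of all genes tested; macrophage, cytokine, matrix and mitosis lists reach far to the right, and male-biased, hepatocyte and sterol lists to the left.

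Markers of lipid-associated and monocyte-derived macrophages had the highest median log2 fold change of the 39 gene lists, 1.99. Of 16 members tested, 14 rose and 1 fell. Gpnmb ran from 0.352 through 0.737 to 1.69 CPM in low-fat livers and from 0.1197 through 29.5 to 61.2 CPM in knockout-labelled livers, or 5.04 ± 0.60 as log2 fold change (edgeR, adjusted p = 5.4e-06). Liver 1 held the lowest value, below every low-fat liver, while the other 6 started at 11.5. Trem2, the lipid-sensing receptor of these macrophages, went from 0.167 through 0.793 to 1.72 CPM to 0.479 through 10.1 to 12.7 CPM (log2 fold change 3.43 ± 0.48, edgeR adjusted p = 5.6e-05), again with liver 1 lowest. Mmp12, macrophage elastase, and Lpl, lipoprotein lipase, did not overlap between groups and rose by 3.53 ± 0.42 and 2.25 ± 0.27 (edgeR, both adjusted p = 5.3e-06). For Mmp12 the gap was very narrow, with liver 1 at 2.754 CPM and the highest low-fat liver at 2.741 CPM. The 1 member that fell was Fabp5, a fatty acid carrier, at -1.46, named after its value was seen. Without liver 1 the counts were again 14 and 1. In these bulk samples more cells of a type and more RNA per cell cannot be told apart, for rises and falls alike.

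Resident Kupffer cell markers moved less evenly, with 4 of 10 higher and 1 lower, beside 15.1% and 10.2% of all genes tested. Cd5l, a secreted scavenger protein, ran from 48.7 through 69.6 to 123 CPM in low-fat livers and from 85.5 through 174 to 377 CPM in knockout-labelled ones (log2 fold change 1.33 ± 0.26, edgeR adjusted p = 0.00073). Clec1b, a C-type lectin, rose by 0.99 ± 0.19 on the log2 scale (edgeR, adjusted p = 0.00058). Clec4f, the lectin that defines mouse Kupffer cells, differed by 0.27 ± 0.16 (edgeR, adjusted p = 0.24). The summed level of the 10 Kupffer markers ran from 277 to 512 CPM in low-fat livers and from 364 to 833 CPM in knockout-labelled livers, so the ranges overlapped.

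Inflammatory mediators and antigen presentation rose with the macrophage markers. Among cytokines, chemokines and adhesion molecules, 20 of 22 tested were higher and 1 lower. Il1rn, the antagonist of the interleukin-1 receptor, ran from 1.23 through 1.91 to 3.92 CPM in low-fat livers and from 5.13 through 8.38 to 16.4 CPM in knockout-labelled livers without overlap (log2 fold change 2.06 ± 0.30, edgeR adjusted p = 8.4e-05). Cx3cr1, the fractalkine receptor of monocyte-derived cells, rose by 2.43 ± 0.41 (edgeR, adjusted p = 0.00026), and Cxcl12, a homing chemokine, was the member that fell, by 0.44 ± 0.08 (edgeR, adjusted p = 0.00031). Of the dendritic cell and MHC class II genes, 10 of 12 rose. H2-Aa, an MHC class II chain, ran from 22.6 through 34.8 to 81.1 CPM in low-fat livers and from 27.7 through 97.8 to 188 CPM in the others (log2 fold change 1.58 ± 0.35, edgeR adjusted p = 0.0019). Of the interferon-stimulated genes 7 of 16 rose, among them Oas2, a sensor of double-stranded RNA, by 1.36 ± 0.21 (edgeR, adjusted p = 0.00014). Lymphoid and neutrophil markers were scarce: 5 of 16 T and NK cell markers and 4 of 12 neutrophil markers passed the count filter, with 1 and 2 called higher, and Ly6g had no read in the 16 livers. Of 8 B and plasma cell markers tested, 0 were called in either direction. Of 16 markers of sinusoidal and vascular endothelium 5 rose, as did 7 of 20 lysosome and proton pump genes. Beside these counts, 15.1% of all genes tested were called higher and 10.2% lower.

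Matrix genes rose together. Of 28 collagens and matrix proteins, 24 were higher and 1 lower, with a median log2 fold change of 1.06. Col1a1, a chain of the main fibrillar collagen of scars, ran from 1.42 through 5.01 to 8.33 CPM in low-fat livers and from 2.87 through 22.3 to 52.9 CPM in knockout-labelled livers (log2 fold change 2.38 ± 0.39, edgeR adjusted p = 0.00022). Liver 1 held the lowest value, and the other 6, from 20.2 CPM upwards, lay above the low-fat range. Col3a1 went from 15.9 through 28.9 to 47.4 CPM to 26.9 through 92.1 to 198 CPM (log2 fold change 1.78 ± 0.30, edgeR adjusted p = 0.00024). The member that fell was Fn1, fibronectin, which hepatocytes also secrete, at -0.39 (named after its value was seen). Of 15 matrix proteases, inhibitors and crosslinkers 12 rose and 0 fell, among them Loxl2, a collagen crosslinking oxidase, at 1.35 ± 0.23 (edgeR, adjusted p = 0.00031).

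Stellate cell markers of both states were raised. Among quiescent markers 6 of 10 rose, including Hgf, hepatocyte growth factor, which ran from 3.02 through 4.23 to 5.63 CPM in low-fat livers and from 5.87 through 7.15 to 8.79 CPM in knockout-labelled livers without overlap (log2 fold change 0.73 ± 0.15, edgeR adjusted p = 9e-04). Lrat, which esterifies retinol for storage, rose by 0.73 ± 0.17 (edgeR, adjusted p = 0.0025). Among activated markers 6 of 9 rose, including Tagln, a smooth muscle protein, at 0.75 ± 0.21 (edgeR, adjusted p = 0.0098). Acta2, smooth muscle actin and the usual histological marker of activation, ran from 1.34 through 5.94 to 17.4 CPM and from 2.33 through 5.68 to 11.7 CPM, and did not pass the test (log2 fold change -0.07 ± 0.38, edgeR adjusted p = 0.91). In the TGF-beta pathway 7 of 15 genes rose and 0 fell. Tgfb1, the ligand, rose by 0.73 ± 0.17, and its receptor Tgfbr2 by 0.77 ± 0.11 (edgeR, adjusted p = 0.0036 and 8.8e-05).

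**Figure D3:**
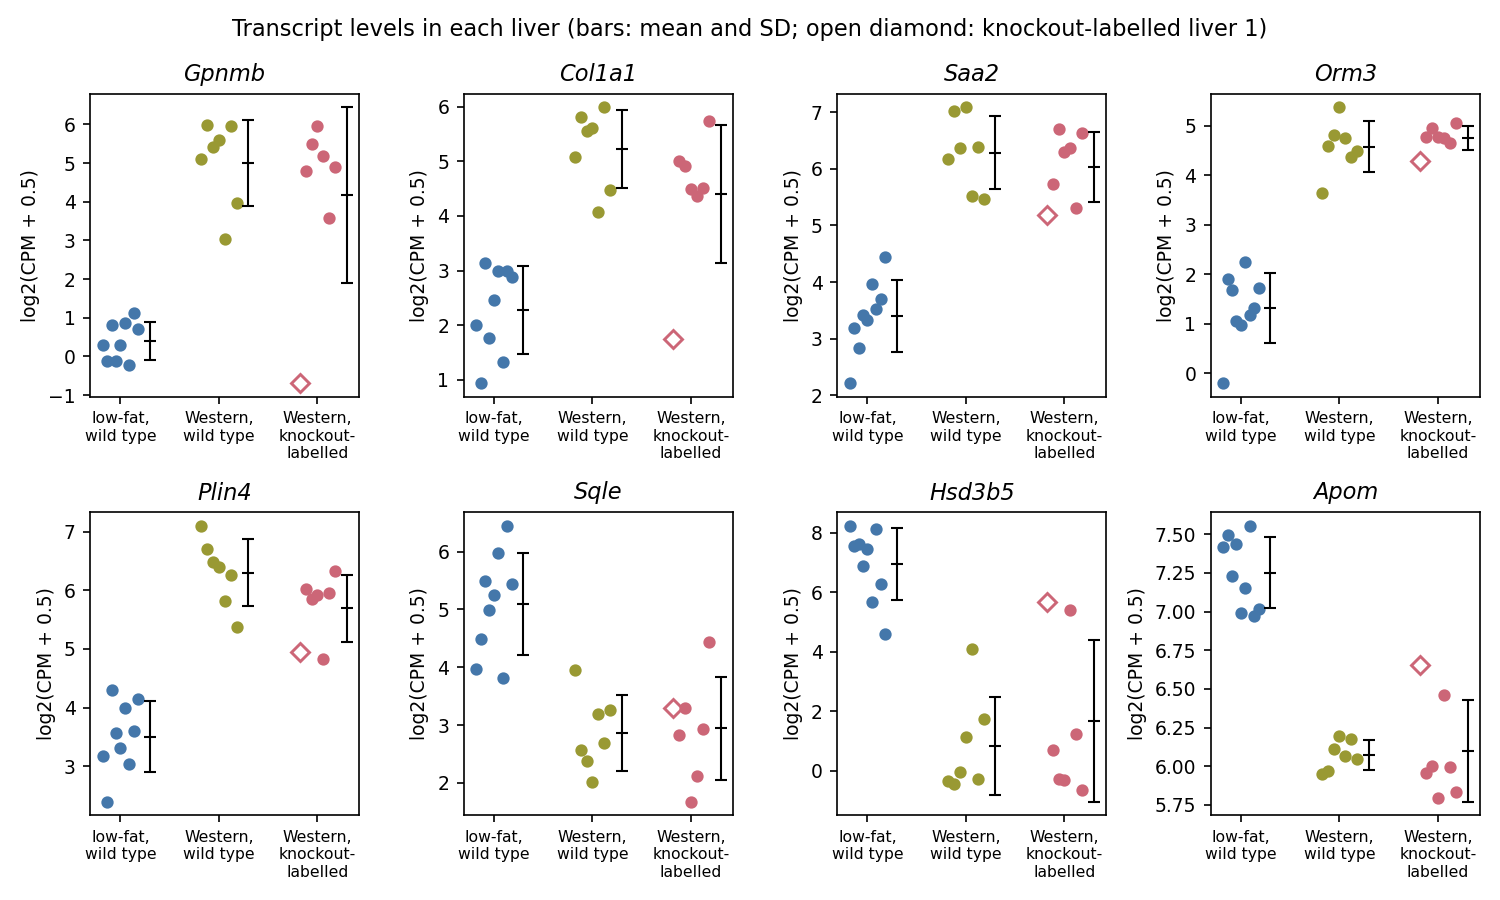
Level of 8 genes in each of the 23 diet livers as log2(CPM + 0.5), with the mean and SD of each group beside its points and knockout-labelled liver 1 as an open diamond. For Gpnmb and Col1a1 liver 1 sits with the low-fat livers, while for Saa2, Orm3, Plin4 and Apom it sits on the side of the other Western diet livers.

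Markers of biliary epithelium, genes of cell division and p53 targets rose as well. Of 12 cholangiocyte and ductular reaction markers, 7 were higher. Krt8 and Krt18, the keratin pair that hepatocytes also carry, rose by 0.97 ± 0.17 and 0.70 ± 0.12 (edgeR, adjusted p = 0.00037 and 0.00036), whereas Sox9, a biliary transcription factor, differed by 0.29 ± 0.26 (edgeR, adjusted p = 0.45). Of 22 genes of mitosis and DNA replication 18 rose and 0 fell. Mki67, which marks cycling cells, ran from 0.937 through 1.76 to 3.54 CPM in low-fat livers and from 2.28 through 11.2 to 14.4 CPM in knockout-labelled livers (log2 fold change 2.15 ± 0.37, edgeR adjusted p = 0.00026), and livers 1, 15 and 33 lay inside the low-fat range. Pcna, the replication clamp, differed by 0.19 ± 0.10 (edgeR, adjusted p = 0.15). Of 13 p53 targets 9 rose. Cdkn1a, the p21 cell cycle inhibitor, went from 2.64 through 5.52 to 8.90 CPM to 9.82 through 28.3 to 47.8 CPM without overlap (log2 fold change 2.04 ± 0.33, edgeR adjusted p = 0.00017).

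Of 16 NRF2 and glutathione genes 11 rose. Gstm3, a glutathione transferase, ran from 28.8 through 48.8 to 68.1 CPM in low-fat livers and from 73.3 through 471 to 740 CPM in knockout-labelled livers, or 3.08 ± 0.36 as log2 fold change (edgeR, adjusted p = 4.4e-06). No knockout-labelled liver overlapped the low-fat range, although liver 1, at 73.3, came close to it. Srxn1, sulfiredoxin, rose by 1.12 ± 0.15 (edgeR, adjusted p = 3.2e-05), while Gclc, the catalytic subunit of glutathione synthesis, differed by 0.04 ± 0.13 (edgeR, adjusted p = 0.85). The unfolded protein and integrated stress response list had 1 of 15 members called, Atf3, an immediate early factor, at 1.89 ± 0.38 (edgeR, adjusted p = 0.001). Over all genes tested the called share was 25.2%.

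Lipid storage genes rose while sterol synthesis fell. Of 18 genes of lipid droplets and lipid uptake 9 were higher and 1 lower. Plin4, a lipid droplet coat protein, ran from 4.77 through 11.4 to 19.2 CPM in low-fat livers and from 28.0 through 59.8 to 79.9 CPM in knockout-labelled livers (log2 fold change 2.23 ± 0.26, edgeR adjusted p = 5.3e-06). Mogat1, which makes diacylglycerol, and Pparg, the nuclear receptor that drives lipid storage, likewise did not overlap and rose by 2.22 ± 0.33 and 1.04 ± 0.16 (edgeR, adjusted p = 8.8e-05 and 0.00014). Cidec, which fuses lipid droplets, rose by 2.64 ± 0.44 (edgeR, adjusted p = 0.00023). G0s2, an inhibitor of adipose triglyceride lipase, differed by 0.10 ± 0.26 (edgeR, adjusted p = 0.82).

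Among 22 genes of sterol synthesis and uptake 12 fell and 0 rose, with a median log2 fold change of -0.63. Sqle, squalene epoxidase, ran from 13.6 through 37.7 to 86.8 CPM in low-fat livers and from 2.69 through 7.15 to 21.1 CPM in knockout-labelled livers (log2 fold change -2.20 ± 0.41, edgeR adjusted p = 0.00051), with some overlap. Tm7sf2, a sterol reductase, went from 82.3 through 118 to 138 CPM to 37.8 through 52.5 to 68.3 CPM without overlap (log2 fold change -1.08 ± 0.16, edgeR adjusted p = 8.4e-05). Idi1, isopentenyl-diphosphate isomerase, fell by 1.27 ± 0.20 (edgeR, adjusted p = 0.00018). Of 9 oxysterol receptor targets 5 rose, including the cholesterol exporters Abcg1 at 1.36 ± 0.21 and Abcg5 at 0.78 ± 0.19 (edgeR, adjusted p = 0.00014 and 0.0041), while Abca1, another cholesterol exporter, differed by 0.09 ± 0.10 (edgeR, adjusted p = 0.53). Fatty acid synthesis had 2 of 17 genes higher and 2 lower, near the 15.1% and 10.2% of all genes tested. Scd1, stearoyl-CoA desaturase, rose by 0.84 ± 0.17 (edgeR, adjusted p = 0.00091), and Fasn, fatty acid synthase, ran from 856 to 4671 CPM and from 1388 to 4291 CPM with or 0.25 ± 0.32 as log2 fold change (edgeR, adjusted p = 0.62). Of 21 fatty acid oxidation and PPAR-alpha target genes 4 rose and 2 fell, again near those shares. Ehhadh, the peroxisomal bifunctional enzyme, went from 382 through 478 to 626 CPM to 637 through 857 to 1120 CPM without overlap (log2 fold change 0.75 ± 0.11, edgeR adjusted p = 5.9e-05), Vnn1, pantetheinase, rose by 0.85 ± 0.14, and Ppargc1a, a coactivator of mitochondrial biogenesis, fell by 0.57 ± 0.17 (edgeR, adjusted p = 0.00019 and 0.014).

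Hepatocyte genes fell across several programmes. Of 16 hepatocyte identity and plasma protein genes 10 fell and 0 rose. Alb, albumin, ran from 69773 through 85525 to 99915 CPM in low-fat livers and from 49567 through 55083 to 69445 CPM in knockout-labelled livers without overlap (log2 fold change -0.58 ± 0.12, edgeR adjusted p = 0.0011). The gap was narrow, and the highest knockout-labelled value was that of liver 1. Apom, the sphingosine-1-phosphate carrier of plasma, went from 125 through 149 to 187 CPM to 55.03 through 63.2 to 100.1 CPM (log2 fold change -1.14 ± 0.12, edgeR adjusted p = 1.1e-06), again without overlap. Apob, the structural protein of very low density lipoprotein, differed by -0.11 ± 0.08 (edgeR, adjusted p = 0.38). Of 18 genes of amino acid catabolism and the urea cycle 10 fell and 0 rose, among them Gls2, liver glutaminase, by 0.89 ± 0.15 and Tat, tyrosine aminotransferase, by 0.86 ± 0.19 (edgeR, adjusted p = 0.00031 and 0.002). Beside these falls, the summed level of the 16 macrophage markers ran from 1051 to 1661 CPM in low-fat livers and from 1344 to 2792 CPM in knockout-labelled livers, with none of the 16 at 0. In low-fat livers the medians of Gpnmb, Trem2, Mmp12 and Lpl were 0.737, 0.793, 2.06 and 16.8 CPM. The sum thus rests mostly on other members and does not gauge macrophage content. The list also holds Plin2, which is in the lipid droplet list too. The part of macrophage RNA in the falls was not tested. Among 14 apolipoproteins and assembly factors 6 fell and 2 rose, while 1 of 14 circadian clock genes fell and 1 of 12 mitochondrially encoded genes rose. Beside these counts, 10.2% of all genes tested were called lower and 15.1% higher.

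Among 20 genes of bile acid synthesis and transport 8 fell and 3 rose. Slc10a1, the basolateral uptake transporter of bile acids, ran from 787 through 864 to 973 CPM in low-fat livers and from 227 through 389 to 756 CPM in knockout-labelled livers without overlap (log2 fold change -0.90 ± 0.23, edgeR adjusted p = 0.0057). Cyp7b1, an oxysterol hydroxylase of the alternative pathway, fell by 1.13 ± 0.29 (edgeR, adjusted p = 0.0069). Abcc4, a basolateral exporter, went from 1.25 through 2.57 to 4.27 CPM to 4.19 through 13.1 to 15.0 CPM (log2 fold change 2.01 ± 0.26, edgeR adjusted p = 1.8e-05), with liver 1 alone inside the low-fat range. Among drug-metabolizing enzymes 2 of 20 rose and 2 fell, beside 15.1% and 10.2% of all genes tested. Cyp3a11, a broad-range cytochrome P450, went from 718 through 880 to 1073 CPM to 1394 through 2426 to 3403 CPM without overlap (log2 fold change 1.45 ± 0.16, edgeR adjusted p = 2.9e-06), and Cyp2e1, the ethanol-oxidizing one, differed by -0.11 ± 0.20 (edgeR, adjusted p = 0.73).

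Of 14 male-biased liver genes, which pulses of growth hormone maintain in males, 9 fell and 0 rose, with a median log2 fold change of -1.08. Hsd3b5, a male-specific steroid reductase, ran from 23.5 through 173 to 299.9 CPM in low-fat livers and from 0.135 through 1.13 to 50.9 CPM in knockout-labelled livers (log2 fold change -3.56 ± 0.89, edgeR adjusted p = 0.0051). Livers 1 and 15 overlapped the low-fat range and the other 5 lay below it. The size of its fall depended on the livers and the model, at -4.42 without liver 1, -4.25 without liver 15, -6.99 within index D502 and -6.67 by voom with quality weights. Mup21, a major urinary protein whose close paralogues make its count uncertain, went from 60.6 through 131 to 235 CPM to 13.3 through 25.7 to 55.4 CPM without overlap (log2 fold change -2.22 ± 0.39, edgeR adjusted p = 0.00036). Cyp4a12a, an arachidonic acid hydroxylase, went the other way, from 98.7 through 160 to 594 CPM to 331 through 452 to 647 CPM, and did not pass the test (log2 fold change 0.76 ± 0.47, edgeR adjusted p = 0.25). Mup20, darcin, differed by -0.51 ± 0.23 (edgeR, adjusted p = 0.11, or 0.039 without low-fat liver 21). Of 15 female-biased genes 8 passed the count filter, of which 2 rose and 0 fell, beside 15.1% and 10.2% of all genes tested.

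Acute phase genes divided into rises and falls. Of 19 tested, 9 rose and 4 fell, beside 15.1% and 10.2% of all genes tested. In 7 of the 19 the groups did not overlap. Of all genes tested, 0.984% lay wholly above the low-fat livers and 0.6% wholly below. Saa1 and Saa2, serum amyloid A proteins, and Orm3, an orosomucoid, have near-identical paralogues, so the split of reads within each family is uncertain. Saa2 ran from 4.14 through 10.2 to 21.2 CPM in low-fat livers and from 35.9 through 78.5 to 104 CPM in knockout-labelled livers (log2 fold change 2.67 ± 0.29, edgeR adjusted p = 2.6e-06). Orm3 went from 0.368 through 1.99 to 4.23 CPM to 19.0 through 26.9 to 32.99 CPM (3.56 ± 0.25, adjusted p = 1.1e-09), and Lcn2, the siderophore-binding lipocalin, from 1.20 through 3.86 to 7.68 CPM to 23.6 through 52.8 to 142 CPM (3.92 ± 0.41, adjusted p = 1.1e-06, both edgeR). For these genes all 7 knockout-labelled livers, liver 1 included, stood above all 9 low-fat livers. The 4 members that fell were Fga, Fgb and Fgg, the fibrinogen chains, and Crp, C-reactive protein, which is a minor acute phase protein in mice (Fga, Fgg and Crp named after their values were seen). Fgb fell by 0.59 ± 0.12 (edgeR, adjusted p = 0.001).

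Promoters are shown because Saa2, Orm3 and Lcn2 share a motif there. The core of the C/EBP site, TTGCNNAA on either strand, stood in the 250 bases upstream of 10 of the 16 acute phase genes with a RefSeq entry (62.5%) and of 10.8% of all 27025 genes with an entry. The 10 were Saa1, Saa2, Saa3, Orm2, Orm3, Lcn2, Hpx and Steap4, which rose, and Fga and Fgb, which fell; Fgg and Crp were not among them. The NF-kB core searched stood in 2 of the 16 (5.31% of all genes) and a STAT3 core (TTCCNGGAA) in 2 of the 16 (1.09% of all). Of the 14 sterol genes with an entry, 1 held the SREBP core TCACNCCAC (1.22% of all), which also stood in 2 of the 16 acute phase genes. A match describes letters only. The upstream bases of 3 genes are given 5′ to 3′ on the gene's strand from RefSeq (GRCm38.p6), with the C/EBP match in capitals. For Orm3 the 161 bases outside RefSeq transcripts are printed, although all 250 were searched. The positions are chr7:46751583-46751832 (+) for Saa2, chr4:63355908-63356068 (+) for Orm3 and chr2:32387740-32387989 (-) for Lcn2. By the wider GENCODE vM21 bounds, the Lcn2 stretch lies inside the gene (32384633-32388252). The Saa2 stretch runs past the gene's start at 46751790.
Saa2: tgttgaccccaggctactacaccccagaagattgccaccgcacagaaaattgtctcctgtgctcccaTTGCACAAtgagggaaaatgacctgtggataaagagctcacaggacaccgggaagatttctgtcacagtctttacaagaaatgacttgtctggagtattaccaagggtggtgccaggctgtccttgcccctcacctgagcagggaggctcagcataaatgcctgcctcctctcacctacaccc
Orm3: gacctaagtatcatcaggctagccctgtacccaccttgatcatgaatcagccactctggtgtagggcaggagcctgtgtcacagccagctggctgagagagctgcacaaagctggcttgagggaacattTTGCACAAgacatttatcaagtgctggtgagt
Lcn2: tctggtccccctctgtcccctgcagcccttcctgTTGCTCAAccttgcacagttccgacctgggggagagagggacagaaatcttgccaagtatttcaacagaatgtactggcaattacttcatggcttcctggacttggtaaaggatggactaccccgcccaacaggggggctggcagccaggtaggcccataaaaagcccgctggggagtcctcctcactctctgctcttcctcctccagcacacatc

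Of 19 tested BMP ligands, receptors and antagonists 5 rose, among them Bmp8b, and 1 fell, beside 15.1% and 10.2% of all genes tested. Acvrl1, a type I receptor of endothelium, rose by 0.94 ± 0.24, Bmper, an extracellular regulator of BMP, by 1.36 ± 0.36, and the ligand Bmp5 by 0.39 ± 0.11 (edgeR, adjusted p = 0.007, 0.0085 and 0.013). The member that fell was Tfr2, transferrin receptor 2, at -0.35 (named after its value was seen). Of 11 BMP-SMAD targets 2 fell and 0 rose, and both encode hepcidins. Without liver 1 the number that fell was 4. Hamp ran from 319 through 535 to 691 CPM in low-fat livers and from 104 through 152 to 480 CPM in knockout-labelled livers (log2 fold change -1.19 ± 0.34, edgeR adjusted p = 0.012). Hamp2, its close paralogue, went from 13.5 through 62.6 to 133 CPM to 9.10 through 14.5 to 24.9 CPM (log2 fold change -2.18 ± 0.43, edgeR adjusted p = 9e-04), and both genes overlapped between groups. Id3, a general target of BMP signalling, differed by -0.20 ± 0.23 (edgeR, adjusted p = 0.56). Among 12 metallothionein and iron handling genes 5 rose and 3 fell, with Slc39a4, a zinc importer, going from 1.76 through 6.25 to 13.1 CPM to 17.4 through 35.6 to 65.4 CPM (log2 fold change 2.56 ± 0.30, edgeR adjusted p = 5e-06) and Mt2, a metallothionein, rising by 1.75 ± 0.36 (edgeR, adjusted p = 0.0013), both without overlap.

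The 7 knockout-labelled livers differed among themselves by gene group. As a mean over the tested members of log2(CPM + 0.5), relative to the low-fat mean, the macrophage list stood at 0.03 in liver 1 and between 0.99 and 2.14 in the other 6, against -0.42 to 0.40 in the low-fat livers. The matrix list stood at -0.14 in liver 1 and between 0.66 and 1.57 in the others, and the mitosis list at -0.07 and between 0.21 and 1.48. Liver 1 was thus within the low-fat range for all 3 lists. For the acute phase list it stood at 0.75, with the others between 0.42 and 0.95 and the low-fat livers between -0.30 and 0.14. For BMP-SMAD targets it stood at -0.31, below the low-fat range of -0.25 to 0.47, and for sterol synthesis at -0.51, where the other knockout-labelled livers ran from -1.01 to -0.27 and the low-fat livers from -0.67 to 0.57. Livers 15 and 33 came next to liver 1 in the mitosis list (0.34 and 0.21) and in the NRF2 list (0.48 and 0.69). Leaving out liver 1 changed the number of members that rose from 6 to 7 for quiescent stellate cells, 2 to 3 for female-biased genes, 2 to 3 for drug-metabolizing enzymes, 7 to 8 for cholangiocytes, 18 to 19 for mitosis, 9 to 8 for p53 targets and 11 to 13 for NRF2. The number that fell went from 12 to 10 for sterol synthesis, 8 to 10 for bile acids, 10 to 11 for hepatocyte identity, 9 to 8 for male-biased genes, 4 to 6 for the acute phase and 1 to 2 for BMP ligands, receptors and antagonists. It went from 0 to 1 for B and plasma cells, for the unfolded protein list and for lysosome genes. Since the lists share these 7 livers, the pattern is a description of them and was not tested.

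**Figure D4:**
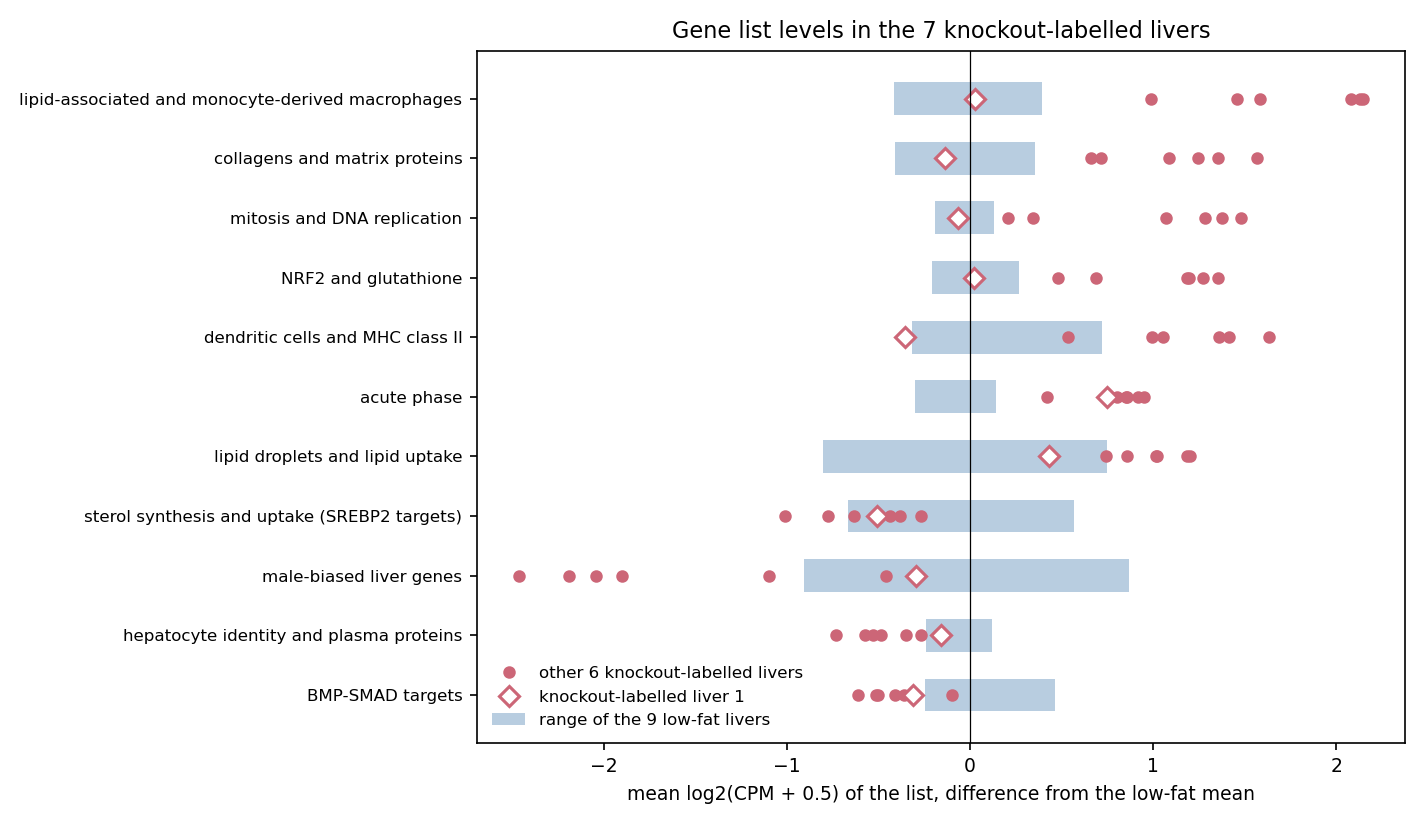
Mean log2(CPM + 0.5) of 11 gene lists in each knockout-labelled liver, as the difference from the low-fat mean, with the range of the 9 low-fat livers as a bar. Liver 1, the open diamond, lies inside the low-fat bar for the macrophage, matrix, mitosis and NRF2 lists and outside it, at 0.75, for the acute phase list.

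At equal diet, few genes differed between the knockout-labelled and the wild-type livers. Of the 13005 genes tested 2 (0.0154%) passed the test between these Western diet groups, BC002163 and Utp11, both higher with the label, and 766 had an unadjusted p below 0.05 (edgeR quasi-likelihood test; DESeq2 called 3). Utp11, a factor of ribosome assembly, lies on chromosome 4, 1.55 Mb from Bmp8b. It ran from 15.6 through 19.5 to 22.6 CPM in low-fat livers, from 15.3 through 16.9 to 19.6 CPM in wild-type Western diet livers and from 22.8 through 26.3 to 29.0 CPM in knockout-labelled livers. The knockout-labelled livers lay above both other groups, with a log2 fold change of 0.62 ± 0.08 over the wild-type Western diet livers (edgeR, adjusted p = 0.00047). Within 5 Mb of Bmp8b 87 genes were tested, of which 24, 13 higher and 11 lower, were called against the low-fat livers (27.6%, near the 25.2% of all genes). In the comparison at equal diet, 11 of these 87 (12.6%) had an unadjusted p below 0.05, against 5.89% of all genes tested. They included Ndufs5 and St3gal3, a sialyltransferase, whose log2 fold changes of -0.78 ± 0.16 and -0.39 ± 0.10 did not pass the adjusted test (edgeR, adjusted p = 0.26 and 0.79). With the BC002163 reads summed in, the Ndufs5 difference at equal diet was 0.12 ± 0.13 (edgeR, adjusted p = 0.85).

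The wild-type diet response used the same 9 low-fat livers, so both responses share their controls and their values are only set side by side. In the wild-type livers 2656 genes were higher (20.4%) and 2213 lower (17% of genes tested). The macrophage list had 15 of 16 higher with a median log2 fold change of 2.45, against 14 and 1.99 in the knockout-labelled livers. The matrix list had 26 of 28 higher with a median of 1.501 against 24 and 1.06, and the sterol list 14 of 22 lower with a median of -0.82 against 12 and -0.63. For the male-biased list it was 10 of 14 lower with a median of -1.74 against 9 and -1.08. The knockout-labelled values include liver 1, whose mean list levels were 0.03 for macrophages and -0.14 for matrix. The lowest wild-type Western diet levels for these lists were 0.98 and 0.69. In the direct test between the Western diet groups, 0 members of any of the 39 lists were called by edgeR. Cyp4a12a ran from 10.7 through 117 to 348 CPM in wild-type Western diet livers, and its difference of 1.58 ± 0.51 in favour of the knockout-labelled livers had an unadjusted p of 0.0051 (edgeR, adjusted p = 0.81).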

How the data were processed

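Whole-liver RNA was sequenced after an Illumina mRNA library preparation, per the labels' protocols. Reads were aligned with TopHat2 2.0.11 and counted with HTSeq against GRCm38, per the submitters' processing notes; the annotation release and strand setting are not given in the sources used here. The values are raw counts per gene as the authors deposited them. Of 38293 gene IDs in the diet table, 36345 matched a symbol. Of the other 2 count tables only Ndufs5 and BC002163 were read.

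The 23 diet libraries entered 1 model of 3 groups in edgeR 4.0.16 (R 4.3.3): filterByExpr, TMM, quasi-likelihood F-test, Benjamini-Hochberg adjusted p below 0.05 over the 13005 genes kept. SE is the log2 fold change divided by the root of F. Levels are TMM-scaled CPM, and 0.5 CPM was added before logs. Between pairs of livers in a group, chi-square per degree of freedom over genes was 8.4 to 63.6, so none was a copy. Depth limits genes of a few reads, and intervals cover counting error only. The script was tested on simulated data.

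The members and gene lists were chosen with earlier results of these data known. Named were Bmp8b and Bmp8a, the 8 largest called rises and falls of genes averaging 5 CPM or more in the higher group, the 6 largest each way without overlap, and from each of 39 lists up to 4 called members with the smallest p and up to 2 uncalled members with the highest mean; the text gives a part of these and marks others. In the comparison at equal diet all called genes and the 4 next were named. Alternatives were DESeq2 1.42.0, limma 3.58.1 (voom with quality weights), other filters and scalings, a 1.5-fold threshold, index sets and each liver left out.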

Additional observations from a re-analysis of the deposited data

Results flagged for a closer look

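Within groups, 7 of 198 sets of values held a liver far from the others by Dixon's test, which chance alone does in about 5% of sets; 3.54% were found. Knockout-labelled liver 1 was the lowest of its group for Gpnmb (0.1197 CPM against 11.5 to 61.2, gap over range 0.644), Col1a1 (2.87 against 20.2 to 52.9, 0.656) and Tgfbr2 (30.2 against 45.7 to 62.4, 0.571), and the highest for Srgap3 (4.31 against 0.490 to 1.35, 0.604). Knockout-labelled liver 33 was the lowest for the acute phase list (0.42 against 0.75 to 0.95 on the log2 scale, 0.62). Low-fat liver 19 was the highest of its group for H2-Aa (81.1 against 22.6 to 42.6 CPM, 0.504) and for the dendritic cell and MHC class II list (0.72 against -0.32 to 0.14 on the log2 scale, 0.555). In the direct test between the Western diet groups, BC002163 was higher with the knockout label by a log2 fold change of 4.45, and Utp11 by 0.619. What sets these livers or genes apart was not tested.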

How the results depend on the processing

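The call count of 3282 stayed within 1.5 times under DESeq2 size factors, DESeq2, voom, both other filters, robust dispersion, the 2-group fit and the index covariate (2723 to 3882), and with each liver left out (2343 without knockout-labelled liver 35 to 3811 without liver 1). It moved to 373 with a 1.5-fold threshold (343 higher, 30 lower), to 1581 within index D501 and to 638 within D502, which hold fewer livers. The 2 calls at equal diet became 1 with the fold threshold and 1 within D502, and 2 to 3 with a liver left out. Within D501 there were also 2 calls, but only 1 of them was among the original 2. The wild-type response had 4869 calls, 990 with the fold threshold, 1401 within D502 and 4222 to 5031 with a liver left out. The Bmp8b difference of 1.67 was 3.00 with a pseudocount of 0.1, 1.14 with 1 and 1.59 to 1.79 with a liver left out. Ndufs5 went from -0.90 to 0.0237 once its reads were summed with those of BC002163. Over the alternatives, 58 values of named genes lost their call and 2 gained one, while 2315 stayed on the same side of the threshold, called or not. Of the counts of gene list members, 219 moved by over 1.5 times or changed between none and at least 1, and 1887 did not. No paired analysis was possible because the diet groups share no mouse numbers.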

Other observations

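In the comparison at equal diet, 6 of 15 genes of the unfolded protein and integrated stress response had an unadjusted p below 0.05, against 5.89% of all genes tested, and 0 were called by edgeR. Hspa5, the chaperone BiP, ran from 584 through 772 to 1034 CPM in low-fat livers, from 572 through 597 to 725 CPM in wild-type Western diet livers and from 534 through 759 to 979 CPM in knockout-labelled livers. Its log2 fold change between both Western diet groups was 0.29 ± 0.12 (edgeR, adjusted p = 0.81). Of 28 collagens and matrix proteins, 6 had an unadjusted p below 0.05, and the list's median log2 fold change relative to the wild-type Western diet livers was -0.38. These were the highest such counts of any gene list, with quiescent stellate cells next at 3 of 10, so both are picked from many. Members of a list were measured in the same livers and can vary together. Whether either count exceeds the 5.89% of all genes was not tested.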
